A study of Homo sapiens with 4 samples.

Results

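The Notch genes described here are 3 receptors (NOTCH1, NOTCH2 and NOTCH3), 3 ligands (JAG1, JAG2 and DLL1) and 4 transcriptional targets (HES1, HES4, HEY1 and HEYL). They were chosen with earlier results of these data known and looked up by symbol. Each matched 1 of the 57820 Ensembl gene identifiers in the count files, so all 10 were found. All 10 passed the filter on low counts that left 17785 genes to test. RNA was sequenced from 2 libraries of TD cells and 2 libraries of parental A549 cells. A549 is an established human lung adenocarcinoma line of epithelial morphology. The TD line is the same line under repeated treatment, 2 ng/ml of TGF-β (transforming growth factor beta) every 3 days, and its morphology is labelled mesenchymal-like. Both lines grew in the same serum-containing medium with gentamycin, and the parental cells received no TGF-β in the labels' protocols. The labels name no clone and no length of TGF-β exposure, and whether replicate libraries are separate cultures is not stated. The p-values therefore rest on a library-to-library spread that may be technical.

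Notch receptors are single-pass membrane proteins that bind Jagged and Delta-like ligands on neighbouring cells. Binding leads to cleavage by ADAM proteases and then by γ-secretase, and the freed intracellular domain joins the DNA-binding protein RBPJ and a Mastermind-like coactivator to switch on genes such as those of the HES and HEY repressors. In the lung the pathway is known for setting the balance of secretory and ciliated airway cells, and it is known to cross-talk with TGF-β signalling. Only RNA was measured here. Receptor protein, its cleavage and its presence in the nucleus were not.

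The proximal promoters of 5 of the genes are shown first, because HES and HEY genes are known for RBPJ sites close to their start. The RefSeq promoter windows on GRCh38.p14 span 250 bases before to 50 bases after the start, and 8 of the 10 genes had one, the other two being DLL1 and HEY1. Both strands were searched for TGGGAA, the core of the RBPJ site, and for CAGAC, the core of the SMAD box through which TGF-β acts. These letters and their reverse complements are in capitals below. The windows of the targets HES1, HES4 and HEYL, each lower in TD cells, are followed by those of NOTCH3, which had the largest fall among the 10 genes and holds no match, and of JAG1, the most abundant ligand.
HES1 (chr3:194135898-194136197, plus strand): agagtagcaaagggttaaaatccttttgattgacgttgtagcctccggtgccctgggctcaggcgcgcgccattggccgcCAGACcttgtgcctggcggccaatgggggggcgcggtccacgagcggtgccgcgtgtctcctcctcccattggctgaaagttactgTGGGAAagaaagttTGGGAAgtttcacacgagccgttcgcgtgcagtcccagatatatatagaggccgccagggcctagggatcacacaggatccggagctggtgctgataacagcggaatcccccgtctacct
HES4 (chr1:1000048-1000347, minus strand): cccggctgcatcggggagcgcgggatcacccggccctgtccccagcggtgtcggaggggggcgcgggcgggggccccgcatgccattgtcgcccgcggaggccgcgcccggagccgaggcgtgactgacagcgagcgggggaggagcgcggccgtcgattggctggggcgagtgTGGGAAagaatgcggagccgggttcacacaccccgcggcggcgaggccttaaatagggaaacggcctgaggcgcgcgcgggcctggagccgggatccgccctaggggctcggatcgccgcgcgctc
HEYL (chr1:39639594-39639893, minus strand): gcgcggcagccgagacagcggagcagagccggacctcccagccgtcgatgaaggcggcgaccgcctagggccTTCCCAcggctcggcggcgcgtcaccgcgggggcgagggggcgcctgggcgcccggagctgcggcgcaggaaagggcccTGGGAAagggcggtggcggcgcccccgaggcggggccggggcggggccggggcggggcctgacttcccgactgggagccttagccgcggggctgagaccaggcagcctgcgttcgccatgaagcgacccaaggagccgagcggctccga
NOTCH3 (chr19:15200946-15201245, minus strand): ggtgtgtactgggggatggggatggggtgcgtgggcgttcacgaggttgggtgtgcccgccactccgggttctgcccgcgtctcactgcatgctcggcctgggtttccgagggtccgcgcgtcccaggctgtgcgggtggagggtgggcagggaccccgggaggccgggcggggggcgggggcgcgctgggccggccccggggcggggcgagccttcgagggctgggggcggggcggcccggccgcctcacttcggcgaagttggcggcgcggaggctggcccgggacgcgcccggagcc
JAG1 (chr20:10673950-10674249, minus strand): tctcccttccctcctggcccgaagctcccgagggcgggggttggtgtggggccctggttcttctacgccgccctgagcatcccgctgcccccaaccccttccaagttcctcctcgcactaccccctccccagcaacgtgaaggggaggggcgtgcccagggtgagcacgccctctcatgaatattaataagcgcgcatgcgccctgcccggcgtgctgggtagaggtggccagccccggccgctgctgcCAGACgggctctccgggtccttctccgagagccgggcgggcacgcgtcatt

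The windows of all 3 targets with an entry held TGGGAA. HES1 had it 84 and 70 bases before the start, on the same strand, HES4 once at 76 bases, and HEYL once on each strand, at 178 and 99 bases. None of the 5 receptor and ligand windows (NOTCH1, NOTCH2, NOTCH3, JAG1 and JAG2) held it. Among 35116 promoter windows of this length, 24.0% did. CAGAC was in the windows of HES1 and JAG1, 1 match each, and in 45.3% of all windows. The N box CACNAG, a motif that HES proteins bind, was searched in the same way. It matched 4 times in HES1, 2 times in NOTCH1 (overlapping matches on opposite strands), once in NOTCH2 and once in NOTCH3, and was present in 38.0% of all windows. The E box CACGTG was in none of the 8 windows and in 7.26% of all. These are matches of letters in a window and not measured binding sites.

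NOTCH3 and NOTCH2 exchanged places as the main receptor RNA. Levels are CPM, gene counts scaled to the size of the library and then by edgeR's TMM factors, and so set for all libraries on 1 scale. NOTCH3 had 5.17 and 4.30 CPM in the 2 TD libraries, against 226 and 196 CPM in the 2 A549 libraries. The TD values lay far below both A549 values, and NOTCH3 fell by 5.48 on the log2 scale (SE 0.15, 44.7-fold lower, adjusted p = 4.38e-05 by edgeR's quasi-likelihood test). Its change ranked within the lowest 1.45% of all tested changes. NOTCH2 had 192 and 206 CPM in TD libraries, against 54.6 and 54.0 CPM in A549 libraries. It rose 3.66-fold (log2 change 1.87, SE 0.08, adjusted p = 0.000119 by edgeR), with no overlap between the groups. NOTCH1 had 18.4 and 19.9 CPM in TD libraries, against 17.2 and 14.5 CPM in A549 libraries. These values did not overlap either, but the difference did not pass the test (log2 change 0.27, SE 0.12, adjusted p = 0.133 by edgeR). It passed without TD replicate 1 (adjusted p = 0.0238). In bulk RNA, fewer expressing cells and less RNA per cell cannot be told apart for any of these genes. NOTCH2 has near-identical partial copies, the NOTCH2NL genes, with which reads can be shared, so its level is less certain than those of the other receptors.

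Set against each other per kilobase of annotated exon, the receptors showed the same change of main receptor. NOTCH2 made up 83.4 ± 0.480% of the summed CPM per kilobase of the 3 receptors in TD cells and 11.9 ± 0.972% in A549 cells (SD, n = 2 each). NOTCH3 made up 3.57 ± 0.619% in TD cells and 82.5 ± 0.771% in A549 cells. NOTCH1 took 13.0 ± 0.138% in TD cells and 5.60 ± 0.201% in A549 cells. The sum itself was lower in TD cells, at 14.2 ± 0.630 CPM per kilobase, against 27.2 ± 2.41 in A549 cells. The rise of NOTCH2 in CPM per kilobase was thus smaller than the loss of NOTCH3 on that scale, with means for NOTCH2 of 11.8 in TD and 3.23 in A549 cells and means for NOTCH3 of 0.504 in TD and 22.5 in A549 cells.

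**Figure D1:**
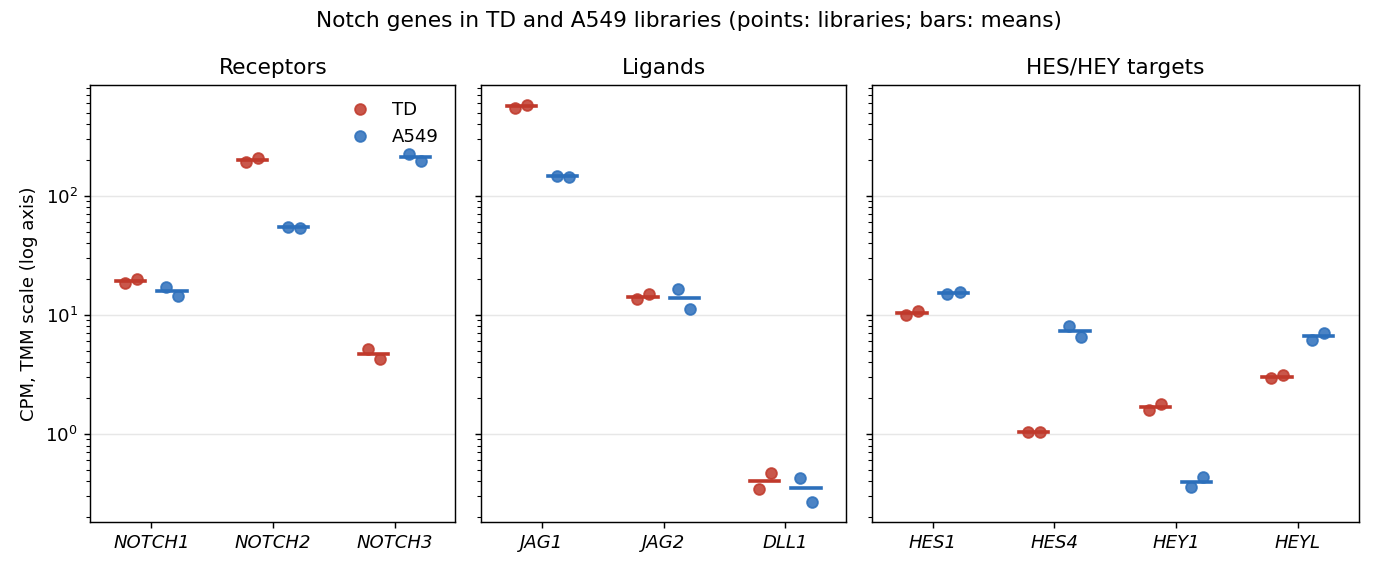
CPM of each gene on a log axis, with 1 point per library, TD in red to the left of A549 in blue, and a bar at the mean of each group. NOTCH3 and HES4 are lower and NOTCH2, JAG1 and HEY1 higher in both TD libraries, while the points of JAG2 and DLL1 overlap.

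Among the ligands, JAG1 rose and JAG2 and DLL1 did not pass the test. JAG1, a Jagged ligand that TGF-β is known to induce in epithelial cells, had 546 and 581 CPM in TD libraries, against 147 and 145 CPM in A549 libraries. The groups were clearly apart, and the rise was 3.86-fold (log2 change 1.95, SE 0.08, adjusted p = 0.000121 by edgeR). JAG2, the other Jagged ligand, had 13.5 and 14.9 CPM in TD libraries, against 16.6 and 11.2 CPM in A549 libraries. Both TD values lay between the A549 values (log2 change 0.031, SE 0.21, adjusted p = 0.919 by edgeR). DLL1, a Delta-like ligand, was close to the limit of detection, with 10 and 19 counts in TD libraries and 12 and 8 counts in A549 libraries (0.345 and 0.467 CPM in TD, 0.431 and 0.27 CPM in A549). These values overlapped, and with an SE of 0.50 around a log2 change of 0.22 a difference was not detectable at this depth (adjusted p = 0.747 by edgeR). DLL1 also overlaps FAM120B on the opposite strand, a gene with 22.5 and 22.0 CPM in TD libraries and 20.9 and 20.6 CPM in A549 libraries. Because the strand setting of the counting is not given, the origin of the few DLL1 reads is uncertain.

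JAG1 was the predominant ligand in both lines. It made up 96.3 ± 0.108% of the summed CPM per kilobase of JAG1, JAG2 and DLL1 in TD cells and 87.4 ± 2.98% in A549 cells (SD, n = 2 each). DLL1 made up 0.199 ± 0.0336% in TD and 0.601 ± 0.169% in A549 cells. The sum of these 3 ligands was 62.9 ± 2.88 CPM per kilobase in TD cells and 18.0 ± 0.830 in A549 cells. It leaves out the further ligands described below. Of these, DNER averaged 11.9 CPM per kilobase in TD and 0.499 in A549 cells, and DLL3 2.23 in TD and 1.71 in A549 cells. With the receptor sum lower, the ratio of ligand to receptor RNA per kilobase was 4.44 in each TD library, against 0.642 and 0.681 in the A549 libraries.

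**Figure D2:**
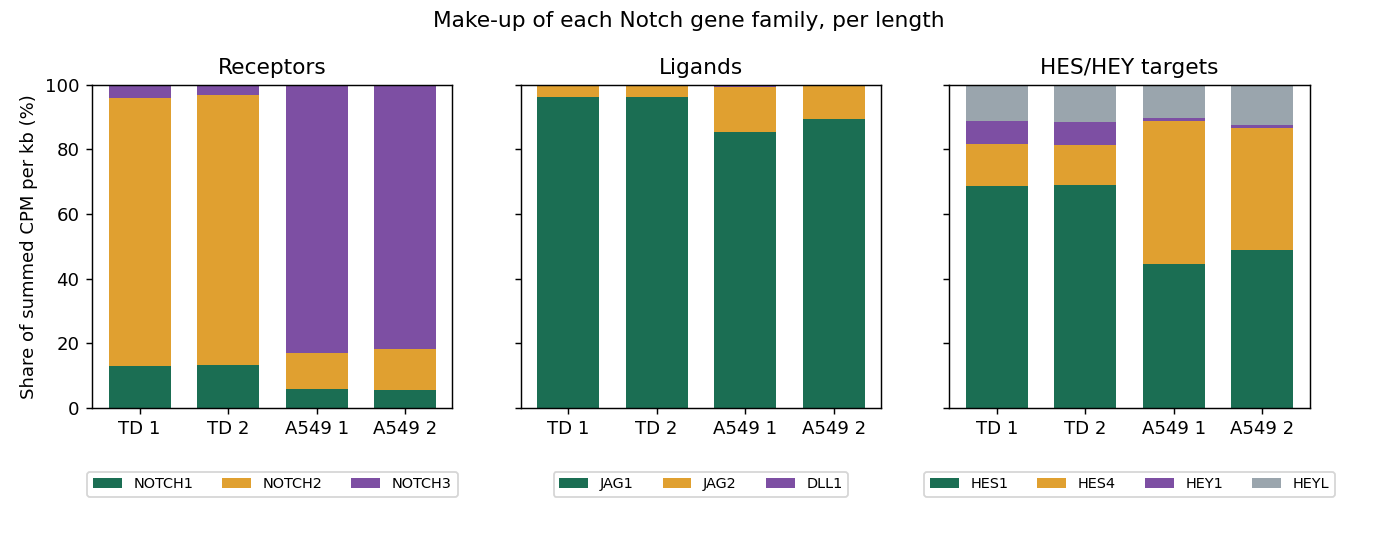
Stacked bars give, for each library, the share of each gene in the summed CPM per kilobase of its family, in percent, with the 2 TD libraries left of the 2 A549 libraries. The receptor bars are mostly NOTCH2 (83.4% on average) in TD and mostly NOTCH3 (82.5%) in A549, JAG1 fills most of every ligand bar, and HES4 takes 12.6% of the target bars in TD against 41.1% in A549.

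The targets did not move as 1 block: HES4, HEYL and HES1 fell and HEY1 rose. HES4, a repressor of the basic helix-loop-helix family, had 1.03 and 1.03 CPM in TD libraries, against 8.12 and 6.57 CPM in A549 libraries. On 30 and 42 counts in TD libraries and 226 and 195 in A549 libraries, both TD values were far below the A549 values, a 7.08-fold difference (log2 change -2.82, SE 0.21, adjusted p = 0.000615 by edgeR). HEYL, a repressor of the HEY subfamily that NOTCH3 is known to induce in vascular smooth muscle, had 2.93 and 3.15 CPM in TD libraries, against 6.22 and 7.04 CPM in A549 libraries. HEYL was 2.18-fold lower in TD (log2 change -1.12, SE 0.17, adjusted p = 0.00599 by edgeR). HES1, a widely used readout of Notch activity, had 10.0 and 10.8 CPM in TD libraries, against 15.1 and 15.7 CPM in A549 libraries. The groups were apart but closer together than for the other called targets, with HES1 1.48-fold lower in TD (log2 change -0.56, SE 0.10, adjusted p = 0.00965 by edgeR). The call of HES1 was lost without A549 replicate 2 (adjusted p = 0.0521), at nearly the same log2 change (-0.56).

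HEY1 went the other way. This HEY-family repressor, which TGF-β is known to induce as well as Notch, had 1.59 and 1.80 CPM in TD libraries, against 0.359 and 0.438 CPM in A549 libraries. Both TD values exceeded both A549 values, 4.21-fold by the fit (log2 change 2.07, SE 0.31, adjusted p = 0.00594 by edgeR). HEY1 rested on few reads, 46 and 73 counts in TD libraries and 10 and 13 in A549 libraries, and its call was lost without A549 replicate 1 (adjusted p = 0.0608). Per kilobase, HEY1 made up 7.14 ± 0.294% of the 4 targets in TD cells and 0.775 ± 0.137% in A549 cells (SD, n = 2 each). HES4 took 12.6 ± 0.600% in TD and 41.1 ± 4.58% in A549 cells, and HES1 took 68.9 ± 0.259% in TD and 46.8 ± 3.01% in A549 cells, so that the share of HES1 was higher in TD although its level was lower. The sum of the 4 targets was 7.32 ± 0.342 CPM per kilobase in TD cells and 16.0 ± 0.601 in A549 cells.

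HES4 lies next to ISG15, an interferon-induced ubiquitin-like protein, in the gene order of GENCODE 29. ISG15 had 8.06 and 10.1 CPM in TD libraries, against 359.7 and 351 CPM in A549 libraries (log2 change -5.29, SE 0.14, adjusted p = 4.38e-05 by edgeR). Its part in the HES4 result was not tested. PERM1, the next gene on the other side of HES4, had 1.34 and 1.87 CPM in TD libraries and 1.44 and 0.742 CPM in A549 libraries and was not called (adjusted p = 0.341 by edgeR).

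Counted together, 3 of the 10 genes rose and 4 fell in TD at an adjusted p below 0.05. The background was high: 43.0% of the tested genes passed this threshold, with 21.6% up in TD and 21.4% down. It was higher still when protein-coding genes were fitted alone, as given below for the further genes of the pathway. At least 2-fold changes with a call were found for 6 of the 10 genes (NOTCH2, JAG1 and HEY1 higher, NOTCH3, HES4 and HEYL lower), against 21.8% of all tested genes. Values of the groups did not overlap for 8 of the 10 genes, against 74.0% of all tested genes, a share close to that background. The median log2 change of the 10 was 0.13 and that of all tested genes -0.043, while the median size of a change was 1.50 for the 10 and 0.50 for all. The 10 genes were chosen with earlier results of these data known, so these comparisons with all tested genes describe them and test nothing.

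**Figure D3:**
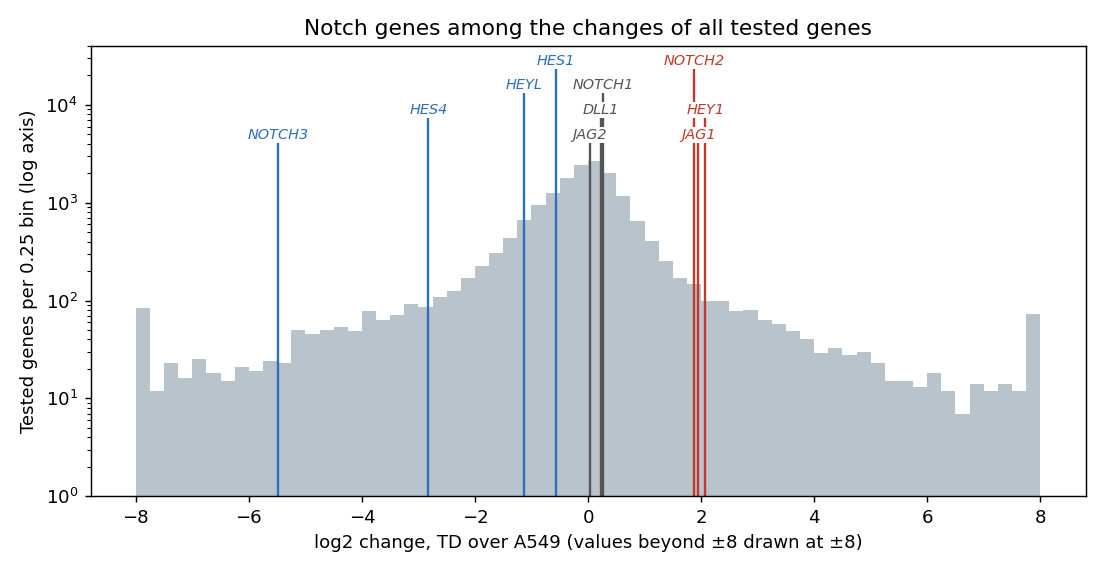
Histogram of the log2 change (TD over A549) of the 17785 tested genes, in bins of equal width with a log axis for the number of genes and the extremes gathered in the outermost bins, and a line at the value of each Notch gene (red called higher in TD, blue called lower, grey not called). NOTCH3 at -5.48 and HES4 at -2.82 lie in the lower tail, NOTCH2, JAG1 and HEY1 lie between 1.87 and 2.07, and NOTCH1, JAG2 and DLL1 lie within the central peak.

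The order of the 10 genes by CPM per kilobase differed between the lines. In TD cells it was JAG1 (60.6), NOTCH2 (11.8), HES1 (5.04), JAG2 (2.22), NOTCH1 (1.85), HES4 (0.924), HEYL (0.83), HEY1 (0.523), NOTCH3 (0.504) and DLL1 (0.126). HEY1 and NOTCH3 overlapped between libraries, and no other neighbours in this order did. In A549 cells it was NOTCH3 (22.5), JAG1 (15.7), HES1 (7.46), HES4 (6.57), NOTCH2 (3.23), JAG2 (2.17), HEYL (1.81), NOTCH1 (1.53), HEY1 (0.123) and DLL1 (0.109). The neighbours JAG2 and HEYL, and HEY1 and DLL1, overlapped there. NOTCH3 in TD cells was above 22.5% of the 17338 tested genes with an annotated exon length, and in A549 cells above 89.4% of them. JAG1 was above 96.4% in TD cells and 84.7% in A549 cells.

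Beyond the 10 genes, 61 further genes of the pathway were listed by role. Of these, 53 could be tested, of which 19 were called higher and 11 lower in TD (56.6%, against 43.0% of all tested genes). The background depended on the genes fitted. With protein-coding genes only, 4205 rose and 4232 fell among 13208, and 21 and 15 of the further genes did. With the filter of 5 CPM in 2 libraries, 3277 rose and 3328 fell among 11175. Both backgrounds exceed 43.0%. A share above 43.0%, here or in the lists below, thus does not show more calls than among comparable genes. Their median log2 change was 0.19. The number called lower was 7 without A549 replicate 1 and 6 without A549 replicate 2.

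Of 6 sugar transferases that modify the receptors, 4 were called higher and 0 lower in TD (66.7% called, against 43.0% of all tested genes; median log2 change 0.53). LFNG, the Lunatic fringe enzyme that extends O-fucose on Notch and shifts which ligands it answers to, had 42.5 and 46.1 CPM in TD libraries, against 4.67 and 3.78 CPM in A549 libraries. LFNG rose 10.5-fold (log2 change 3.39, SE 0.14, adjusted p = 0.000104 by edgeR). EOGT, which adds O-linked N-acetylglucosamine to the repeats of the receptors, had 19.6 and 19.2 CPM in TD libraries, against 9.23 and 8.70 CPM in A549 libraries (log2 change 1.11, SE 0.09, adjusted p = 0.000946 by edgeR). The 2 that were not called were the other fringe genes: MFNG averaged 1.96 CPM in TD and 1.59 CPM in A549, and RFNG averaged 14.2 CPM in TD and 17.1 CPM in A549. Both TD values of RFNG lay below both A549 values (log2 change -0.27).

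Of 9 genes of receptor cleavage, 3 were called higher and 2 lower (55.6% called, against the background of 43.0%). FURIN, the convertase that cuts the receptor during its maturation, had 229 and 284 CPM in TD libraries, against 38.8 and 37.6 CPM in A549 libraries, 6.71-fold higher (log2 change 2.75, SE 0.13, adjusted p = 0.000168 by edgeR). ADAM10, the protease of ligand-dependent cleavage, averaged 244 ± 6.56 CPM in TD and 195 ± 5.26 CPM in A549 cells (SD, n = 2 each; log2 change 0.32). Its adjusted p of 0.0252 by edgeR was 0.115 without A549 replicate 1 and 0.0726 without A549 replicate 2. The related protease ADAM17 fell, with means of 49.8 ± 0.505 CPM in TD and 79.5 ± 3.65 CPM in A549 cells (log2 change -0.67, SE 0.07, adjusted p = 0.00234 by edgeR).

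In the nuclear complex, 6 of 17 genes were called higher and 3 lower (52.9% called, against the background of 43.0%). MAML2 and MAML3, Mastermind-like coactivators, were the largest rises of this list. MAML2 had 17.8 and 17.3 CPM in TD libraries, against 1.37 and 1.89 CPM in A549 libraries (log2 change 3.43, SE 0.19, adjusted p = 0.00026 by edgeR). MAML3 had 52.6 and 58.1 CPM in TD libraries, against 15.1 and 14.8 CPM in A549 libraries (log2 change 1.89, SE 0.09, adjusted p = 0.00016 by edgeR). RBPJ itself, named here because the targets depend on it, averaged 53.1 ± 1.02 CPM in TD and 34.5 ± 2.18 CPM in A549 cells (log2 change 0.62, SE 0.08, adjusted p = 0.0040 by edgeR). The 2 largest falls were TLE4, a Groucho-type corepressor that HES proteins recruit, and KAT2B, an acetyltransferase. TLE4 averaged 6.01 ± 0.549 CPM in TD and 13.1 ± 1.55 CPM in A549 cells (log2 change -1.12), and KAT2B averaged 13.0 ± 0.154 CPM in TD and 25.5 ± 2.39 CPM in A549 cells (log2 change -0.97).

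Among regulators of endocytosis and ubiquitination, 4 of the 11 that could be tested rose and 4 fell (72.7% called, against the background of 43.0%). NEURL1B, a ubiquitin ligase of the Neuralized family that acts on ligands, had 7.48 and 8.41 CPM in TD libraries, against 2.19 and 2.66 CPM in A549 libraries (log2 change 1.71, SE 0.18, adjusted p = 0.00216 by edgeR). NUMBL, a Numb-like adaptor, averaged 48.4 ± 5.41 CPM in TD and 27.4 ± 3.38 CPM in A549 cells (log2 change 0.82). NUMB itself went the other way, with means of 59.0 ± 1.96 CPM in TD and 93.5 ± 1.66 CPM in A549 cells (log2 change -0.66, adjusted p = 0.0022 by edgeR). The 2 largest falls were Deltex-family ligases. DTX3L, which is also known as an interferon-induced gene, had 7.72 and 8.19 CPM in TD libraries, against 113 and 114 CPM in A549 libraries (log2 change -3.83, SE 0.08, adjusted p = 3.20e-05 by edgeR). DTX4 averaged 24.8 ± 1.69 CPM in TD and 51.2 ± 0.398 CPM in A549 cells (log2 change -1.04).

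Of the remaining ligands and receptors that could be tested, only DNER was called. DNER, a transmembrane protein reported to act as a non-canonical Notch ligand in the nervous system, had 46.4 and 46.9 CPM in TD libraries, against 1.94 and 1.99 CPM in A549 libraries. It rose 23.7-fold (log2 change 4.57, SE 0.09, adjusted p = 3.08e-05 by edgeR), the largest change among the genes of the pathway tested here in either direction apart from the fall of NOTCH3. DLL3, a Delta-like protein that inhibits Notch within the cell, had 5.17 and 6.49 CPM in TD libraries and 4.96 and 3.98 CPM in A549 libraries and was not called (adjusted p = 0.203 by edgeR, 0.00501 without TD replicate 1). DLK2 averaged 1.62 CPM in TD and 1.77 CPM in A549 and was not called. DLL4, an endothelial Delta-like ligand, did not pass the filter, with 0 and 1 count in TD libraries and 8 and 13 in A549 libraries. By counts alone, DLL4 was 25.4-fold lower in TD (95% exact interval 4.09 to 1052, covering counting error only). NOTCH4 had 3 and 3 counts in TD libraries and 0 and 2 in A549 libraries, and DLK1 had 0 in all 4.

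Other HES and HEY genes were mostly low, and of the 7 on this list that could be tested 1 rose and 2 fell. That share of calls, 42.9%, is close to the 43.0% of all tested genes in the same fit. With protein-coding genes only, this list had more calls, as the background did. There HES6 (adjusted p = 0.00699 by edgeR), HEY2 and BHLHE41 were called besides BHLHE40, HES7 and HES2, and NRARP was not. BHLHE40, a relative of the HES factors that TGF-β and hypoxia are known to induce, had 382 and 378 CPM in TD libraries, against 112 and 112 CPM in A549 libraries (log2 change 1.77, SE 0.07, adjusted p = 0.000116 by edgeR). HES7 averaged 0.167 CPM in TD and 0.899 CPM in A549 (log2 change -2.38, adjusted p = 0.0148 by edgeR), a call lost without A549 replicate 1 (0.0735) and replicate 2 (0.146). HES2 averaged 0.32 CPM in TD and 1.16 CPM in A549 (log2 change -1.85, adjusted p = 0.0222 by edgeR), a call likewise lost without A549 replicate 1 (0.177) and replicate 2 (0.0678). HES6, HEY2 and BHLHE41 were not called, with means of 2.20, 0.527 and 0.782 CPM in TD cells and 3.65, 1.05 and 0.347 CPM in A549 cells. HES6 was called lower in 5 of 14 alternatives, among them the fits without TD replicate 1 (adjusted p = 0.00498) and without TD replicate 2 (0.00604). HEY2 and BHLHE41 were each called in 2 of 14, with protein-coding genes only (adjusted p = 0.0179 for HEY2 and 0.0150 for BHLHE41 by edgeR) and without TD replicate 1 (0.00971 and 0.00425). NRARP, a feedback inhibitor and direct Notch target, averaged 1.06 ± 0.521 CPM in TD and 1.06 ± 0.0260 CPM in A549 cells (SD, n = 2 each) and was not called (adjusted p = 0.990 by edgeR). HES3 and HELT had 0 counts in all 4 libraries, and HES5 had 0 in both TD libraries and 0 and 1 in the A549 libraries.

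**Figure D4:**
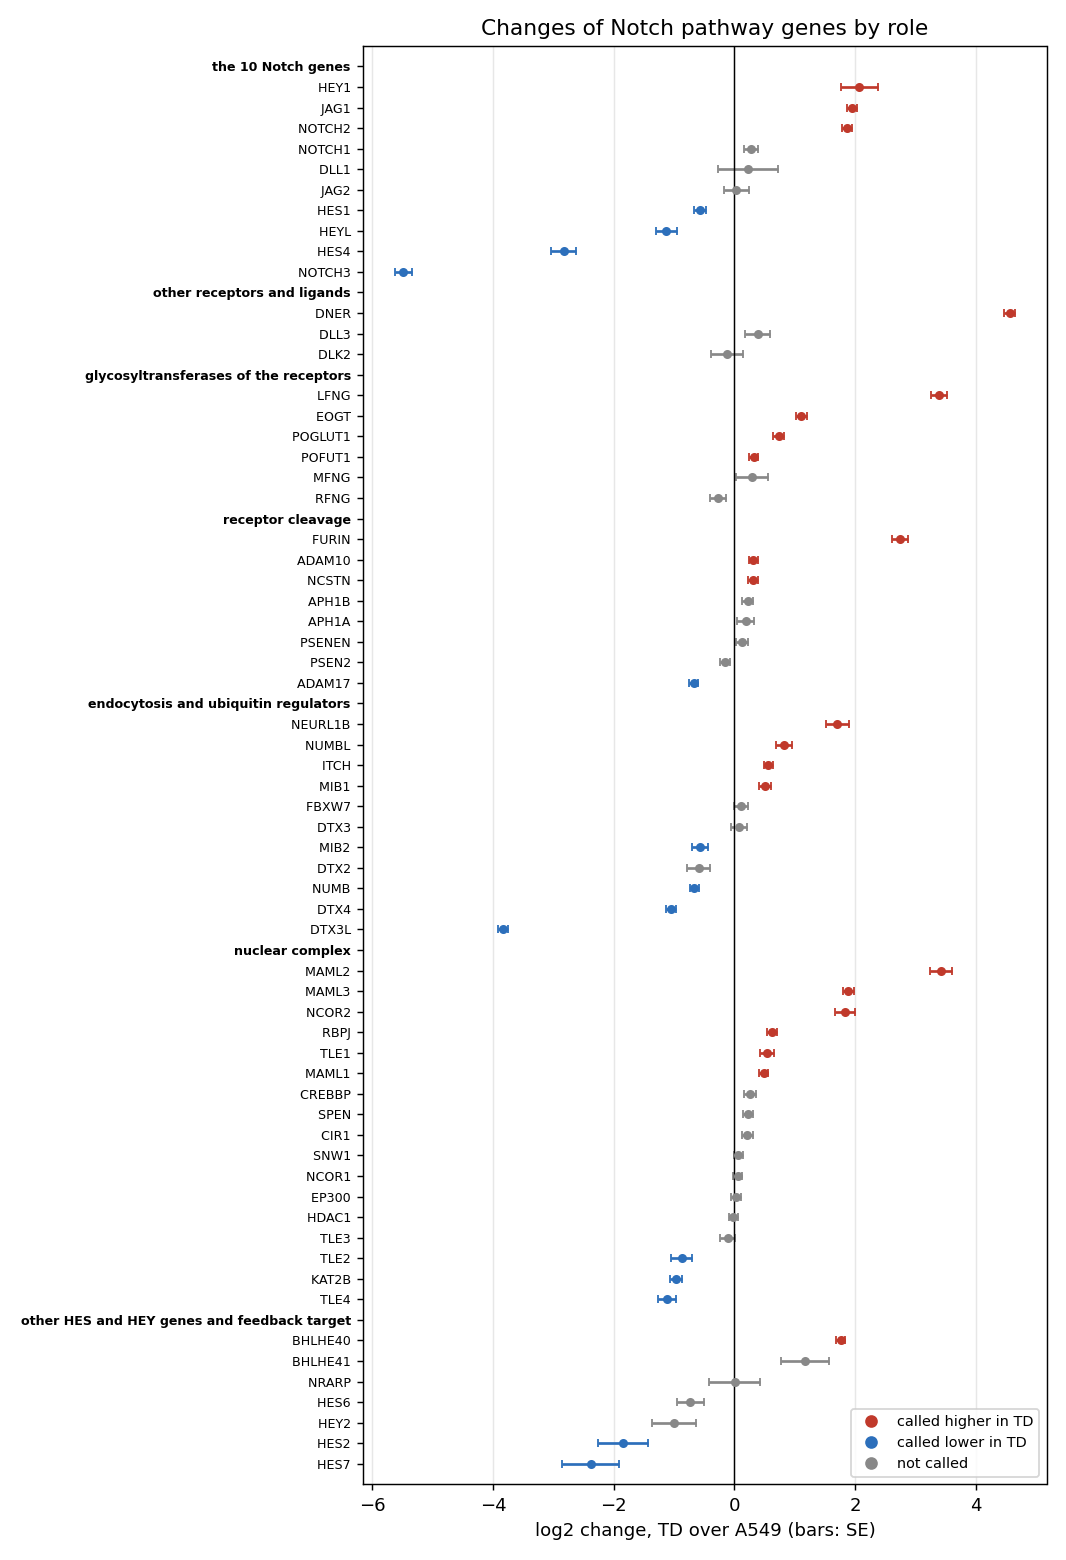
Log2 change (TD over A549) with its SE for the 10 Notch genes and the further tested genes of the pathway that are reported, grouped by role and sorted by change, in red where called higher in TD, in blue where called lower and in grey where not called. NOTCH3, DTX3L and HES4 reach furthest to the left, and DNER, MAML2, LFNG and FURIN furthest to the right.

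The libraries held 28237849 and 44133836 gene counts for TD and 26729278 and 29381872 for A549. The labelled morphology was checked on marker genes: all 5 tested epithelial markers were lower and all 6 mesenchymal markers higher in TD. Summed over 6 epithelial genes the level was 1729 to 2070 CPM in TD and 15317 to 16118 CPM in A549 libraries, with CLDN4 at 0 in all, and over 6 mesenchymal genes 2375 to 2692 CPM in TD and 446 to 450.0 CPM in A549 libraries, with SNAI2 at 0 in A549. Of 6 endothelial markers, listed because endothelium is rich in Notch genes, 5 were matched. They summed to 0.713 to 0.758 CPM in TD and 0.135 to 0.431 CPM in A549 libraries, at most 16 counts for any gene in any library, with VWF at 0 in TD and KDR and TEK at 0 in A549. The 5 blood-cell markers summed to 1.75 to 2.27 CPM in TD and 2.26 to 2.87 CPM in A549 libraries, with CD3E at 0 in all and HBB at 0 in TD.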

How the data were processed

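The authors deposited raw counts of reads per gene, 1 file for each of 2 TD and 2 A549 libraries, made from polyadenylated, strand-specific libraries read from both ends. Per the submitters' processing notes, the tools were FastQC 0.11.8, STAR 2.7.1a and HTSeq 0.11.2 and the build was GRCh37 (hg19). Neither annotation release nor strand setting is given in the sources used here. Reads in no gene (6.12% to 7.79% of all), in several genes (2.34% to 2.56%) or aligned several times (8.08% to 9.22%) stayed out of library sizes and tests.

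Symbols for 52338 of 57820 identifiers came from Ensembl names and GENCODE 29. Exon lengths and gene order came from GENCODE 29, which is on another build (GRCh38), so no coordinates of the count files are given. Promoter sequences are from RefSeq on GRCh38.p14. TD was compared with A549 by the quasi-likelihood test of edgeR 4.0.16 (R 4.3.3) with TMM scaling, the default filter (minimum count 10) and Benjamini-Hochberg adjustment over all 17785 tested genes; SEs come from the change and its F statistic. At these depths 3 counts equal 0.0738 to 0.108 CPM, and intervals cover counting error only.

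The members and lists were chosen with earlier results of these data known. Named genes were all 10 members, every gene of the lists of further receptors and ligands and of HES and HEY genes, and in each other list the 2 largest called changes in each direction. MFNG, RFNG, RBPJ, NUMB, FAM120B and the genes next to members were named outside this rule, after their values were seen. For 1 gene under this rule no values are reported here. Alternatives, 15 in all, changed the scaling (DESeq2 1.42.0 size factors, upper quartile, library totals), the filter, the test (DESeq2, limma-voom of limma 3.58.1, robust dispersion), the depth, the genes fitted, the replicate block and the libraries.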

Additional observations from a re-analysis of the deposited data

How the results depend on the processing

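The 10 genes gave 148 values under the 15 alternatives, of which 138 kept direction and side of the threshold. NOTCH2, NOTCH3, JAG1, HES4 and HEYL kept their calls in all 15; HES1 and HEY1 each lost it once, as given above, and HEY1 and DLL1 could not be tested with the filter of 5 CPM in 2 libraries. Of 353 values for the 24 other named genes, 326 kept direction and side of the threshold, 8 lost a call, 10 gained one and 9 changed sign. Signs turned for genes without a call. The log2 change of JAG2 was -0.052 with library totals only, -0.011 with the filter of 5 CPM and -0.019 with thinned counts, and ranged from -0.25 to 0.31 with 1 library left out. That of DLL1 ranged from -0.11 to 0.54, and that of DLK2 from -0.36 to 0.087, with 1 library left out. NRARP was at -0.028 with upper-quartile scaling, -0.092 with library totals, -0.018 without a filter, -0.016 with limma-voom and -0.078 with the replicate block, and ranged from -0.62 to 0.44 with 1 library left out. With 1 library left out, 2114 to 5329 genes were called higher and 2236 to 6140 lower in TD (3833 and 3809 with all libraries), 2 to 4 of the 10 Notch genes were higher and 3 to 4 lower, and 14 to 24 further pathway genes were higher and 6 to 15 lower. Without A549 replicate 1, 2114 genes were higher and 2236 lower, without A549 replicate 2, 2241 and 2251, and without TD replicate 1, 6140 were lower. The lone library of a group is then assumed to vary like the other group; why the calls moved was not tested. The labels do not say that replicate numbers pair the libraries, and the correlation of the differences between replicates 1 and 2 in TD and in A549 was -0.093 over 17785 genes. With the replicate block, 2964 genes were called higher and 2847 lower, the 10 Notch genes kept 3 and 4 calls, and HES2 lost its call (adjusted p = 0.0588). With 2 libraries a group, and few counts for DLL1, HEY1, HES2 and HES7, small differences of these genes cannot be resolved.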

Other observations

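The genes that flank the Notch genes were looked up by gene order. Of the 20 next protein-coding genes, 13 could be tested, and 6 were called (46.2%, against 43.0% of all tested genes), 3 higher and 3 lower in TD. The 43.0% also counts genes of other types. Beside NOTCH3, ILVBL averaged 36.2 ± 5.81 CPM in TD and 50.0 ± 0.781 CPM in A549 cells (SD, n = 2 each; log2 change -0.47, adjusted p = 0.0379 by edgeR), and EPHX3 had 2 and 1 counts in TD libraries and 2 and 2 in A549 libraries. Beside JAG1, BTBD3 averaged 40.4 CPM in TD and 35.8 CPM in A549 cells and SLX4IP 3.35 CPM in TD and 3.71 CPM in A549 cells, neither of them called. Both genes of this type next to NOTCH2, FCGR1BP and ADAM30, had 0 counts in all libraries. Antisense genes that overlap NOTCH1, JAG1 and HEYL on the opposite strand held at most 4 counts in any library. The ratio of HES1 to HEY1 per kilobase was 9.92 and 9.40 in TD libraries and 65.8 and 56.1 in A549 libraries.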
